A study of Mus musculus with 6 samples.

Results

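S100 proteins are small calcium-binding proteins built on EF-hand loops, and annexins are proteins that bind phospholipid membranes when calcium is present. The account covers 10 genes of these families, S100a1, S100a4, S100a6, S100a7a, S100a10, S100a11, S100a13, S100a16, Anxa1 and Anxa2, out of 48440 genes in the count table. They were chosen by name from a comparison of Ad-Cre-GFP with Ad-GFP libraries, with its results known, so their levels in that comparison are given as a description, with no test. All 10 had counts enough to enter the fit of 14811 genes.

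The RNA came from epithelial cells of the mouse ovarian surface, a thin sheet that wraps the ovary. The 3 Ad-Cre-GFP libraries, with the genotype label Lats1/2 knockout, were from cells given an adenovirus that carries Cre recombinase and GFP. The 3 Ad-GFP libraries, with the genotype label WT, were from cells given an adenovirus that carries GFP without Cre. Both groups therefore received adenovirus and GFP, and RNA was taken 1 week after transduction in each. LATS1 and LATS2 are the Hippo pathway kinases that restrain the coactivators YAP and TAZ, and the question put by the series is how their loss changes gene expression. The labels give no strain or age of the mice and do not describe the Lats1 and Lats2 alleles. Exposure to Cre and loss of Lats1 and Lats2 cannot be told apart in these groups. In bulk RNA, a change in the number of cells that express a gene and a change in its RNA per cell cannot be told apart either.

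Most S100 proteins form dimers that expose a binding surface when calcium rises and then attach to partner proteins, annexins among them. S100A10 has lost the ability to bind calcium and is held in a stable complex with annexin A2 under the plasma membrane, where it also binds plasminogen and its activator. Annexin A1 is known as a mediator that dampens inflammation and as a partner of S100A11, and annexins and S100A11 take part in the repair of torn plasma membrane.

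The promoter windows of 4 of the genes are shown: S100a7a and Anxa1 for the TEAD motif, S100a11 and Anxa2 for the AP-1 motif. A window of S100a16 also holds an AP-1 motif and is not shown. TEAD proteins are the DNA-binding partners of YAP and TAZ, and AP-1 is the FOS and JUN family of factors. Each RefSeq window on GRCm38.p6 runs 5′ to 3′ from 250 bases before to 50 bases after the start of transcription. Capitals mark GGAATG or, on the other strand, CATTCC for TEAD, and TGANTCA, which reads alike on both strands, for AP-1. No TEAD and AP-1 motif overlap. The windows are chr3:90654052-90654351 on the plus strand for S100a7a, chr19:20390622-20390921 on the minus strand for Anxa1, chr3:93520246-93520545 on the plus strand for S100a11 and chr9:69453433-69453732 on the plus strand for Anxa2.
S100a7a: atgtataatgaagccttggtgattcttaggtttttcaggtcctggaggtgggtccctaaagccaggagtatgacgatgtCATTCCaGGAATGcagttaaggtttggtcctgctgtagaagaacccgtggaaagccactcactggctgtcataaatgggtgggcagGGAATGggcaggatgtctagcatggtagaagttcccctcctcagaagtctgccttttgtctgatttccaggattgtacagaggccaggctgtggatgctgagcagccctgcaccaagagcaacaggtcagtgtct
Anxa1: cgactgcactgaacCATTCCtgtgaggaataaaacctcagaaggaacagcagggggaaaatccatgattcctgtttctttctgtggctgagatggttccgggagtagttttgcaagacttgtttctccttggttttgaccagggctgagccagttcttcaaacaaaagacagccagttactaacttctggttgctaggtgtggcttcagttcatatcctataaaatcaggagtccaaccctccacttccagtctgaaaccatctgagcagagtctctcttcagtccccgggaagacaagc
S100a11: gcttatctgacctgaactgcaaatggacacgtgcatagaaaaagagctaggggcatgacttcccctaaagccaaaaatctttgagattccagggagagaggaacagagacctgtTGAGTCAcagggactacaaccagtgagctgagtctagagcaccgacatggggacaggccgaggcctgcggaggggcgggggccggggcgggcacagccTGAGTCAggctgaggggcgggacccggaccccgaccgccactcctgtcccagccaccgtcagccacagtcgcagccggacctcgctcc
Anxa2: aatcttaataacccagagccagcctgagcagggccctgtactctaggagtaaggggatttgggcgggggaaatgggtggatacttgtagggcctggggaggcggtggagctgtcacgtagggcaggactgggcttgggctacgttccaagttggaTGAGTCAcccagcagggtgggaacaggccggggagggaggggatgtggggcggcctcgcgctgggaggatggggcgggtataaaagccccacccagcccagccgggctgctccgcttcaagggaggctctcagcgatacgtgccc

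Promoter windows were found in the RefSeq table for 9 of the 10 genes, with 2 windows for S100a16. S100a10 has no entry. The S100a7a window held 3 TEAD motifs, whose first bases lie at -171, -164 and -85 with the start of transcription at 0, and no AP-1 motif. The Anxa1 window held 1 TEAD motif, at -236. The RefSeq starts of S100a7a and Anxa1 lie 285 and 273 bases downstream of the GENCODE gene starts, so both windows, with their motifs, lie inside the GENCODE genes. The RefSeq starts of S100a11 and Anxa2 lie 8 and 63 bases downstream of the GENCODE gene starts. Of all 32851 promoter windows of the same length, 14.7% held the TEAD letters at least once and 0.131% held them 3 or more times. The AP-1 letters stood in the windows of S100a11 at -136 and -38, of Anxa2 at -95 and in the second window of S100a16 at -192, against 7.81% of all windows. The windows of S100a1, S100a4, S100a6 and S100a13 held neither the TEAD nor the AP-1 motif. The TATA letters, TATAAA or TTTATA, were searched too and are not marked. They stood in the windows of S100a4, Anxa1 and Anxa2, against 13.6% of all windows. The letters are a description of these windows, and no binding was measured.

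The library totals were 27734527 to 30304033 counts in Ad-Cre-GFP and 18690235 to 25363462 counts in Ad-GFP, so every Ad-Cre-GFP library was the deeper. Lats1 averaged 37.1 ± 1.36 CPM (counts scaled by TMM to a library of 1e+06) in Ad-Cre-GFP and 159 ± 8.74 CPM in Ad-GFP (SD, n = 3 each). Lats2 averaged 98.7 ± 1.97 CPM in Ad-Cre-GFP and 130 ± 2.16 CPM in Ad-GFP. All 10 markers of ovarian surface epithelium and mesothelium were detected, with a summed level of 2827 to 2863 CPM in Ad-Cre-GFP and 2791 to 2875 CPM in Ad-GFP. Within that sum 5 markers rose and 5 fell, and the most abundant, Msln, averaged 887 CPM in Ad-Cre-GFP and 413 CPM in Ad-GFP. Granulosa markers, mostly Inhbb, rose in 3 of 4 tested and fell in 1, with a sum of 324.0 to 337.0 CPM in Ad-Cre-GFP and 134.1 to 146.4 CPM in Ad-GFP and with Fshr and Cyp19a1 at 0. Endothelial markers, with Tie1 at 0, summed to 2.16 to 2.64 CPM in Ad-Cre-GFP and 0.106 to 0.470 CPM in Ad-GFP. Across all genes tested, 69.8% were called at an adjusted p under 0.05, 34.0% higher and 35.8% lower in Ad-Cre-GFP. In 73.0% of them the 3 libraries of each group did not overlap. The third Ad-GFP library stood apart from the other Ad-GFP libraries on the second principal component, at -18.7 against 8.85 and 11.1, and held the lowest Ad-GFP level of 6 of the 10 genes and the highest of the other 4. Without it, the log2 fold changes of the 10 genes were 5.31 for S100a7a, 0.46 for Anxa1, -0.16 for Anxa2, 0.13 for S100a10, 0.16 for S100a6, 0.27 for S100a11, -0.19 for S100a1, 0.37 for S100a13, -0.72 for S100a4 and -0.51 for S100a16.

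All 10 genes had groups that did not overlap, 6 with higher and 4 with lower levels in Ad-Cre-GFP, beside 73.0% of all genes tested with no overlap. Only S100a7a was at least 2-fold higher, against 6.29% of all genes tested. The other 9 changed by less than 1 on the log2 scale, and the median of the 10 log2 fold changes (Ad-Cre-GFP over Ad-GFP) was 0.17, against -0.01 over all genes tested. The coefficient of variation between the libraries of a group was 0.228% to 6.75% in Ad-Cre-GFP and 1.67% to 8.55% in Ad-GFP. Since the genes were chosen on this contrast, nothing is read from their share of calls or from the lack of overlap.

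**Figure D1:**
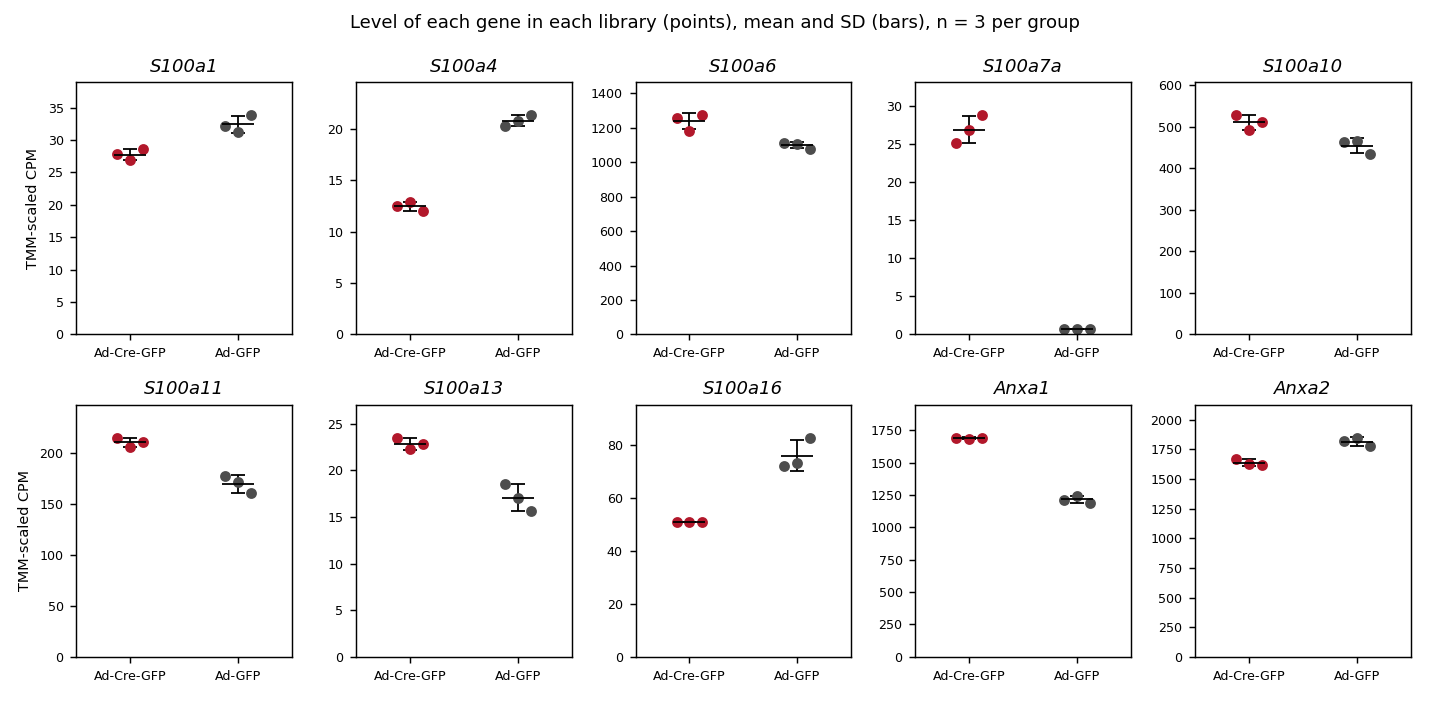
Level of each of the 10 genes in the 3 Ad-Cre-GFP libraries (left in each panel) and the 3 Ad-GFP libraries (right), in TMM-scaled CPM on axes that start at 0; points are libraries and bars are the mean and SD. S100a7a is between 25.1 and 28.7 CPM in Ad-Cre-GFP and no higher than 0.742 CPM in Ad-GFP, and the groups of the other 9 genes lie closer together without overlapping.

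S100a7a, the mouse gene of the psoriasin type that is known from inflamed skin, had a low level in Ad-GFP. It had 734, 799 and 787 counts in the Ad-Cre-GFP libraries, against 15, 17 and 14 counts in the Ad-GFP libraries. On the scaled level these were 25.1, 26.7 and 28.7 CPM in Ad-Cre-GFP, against 0.684, 0.665 and 0.742 CPM in Ad-GFP. The mean was 26.9 ± 1.81 CPM in Ad-Cre-GFP and 0.697 ± 0.0402 CPM in Ad-GFP (SD, n = 3 each), a 38.4-fold difference and a log2 fold change of 5.26 ± 0.12 (SE). This was the rank 24 log2 fold change among 14811 genes. Every Ad-GFP library was still above the level of 3 counts, which is 0.0990 to 0.161 CPM in these libraries. The gene lies at chr3:90654017-90658669 on GRCm38, in the S100 block of chromosome 3. The keratinocyte markers moved the other way from S100a7a, as 3 of 3 tested fell, beside 35.8% lower over all genes tested. Their summed level was 168.0 to 175.8 CPM in Ad-Cre-GFP and 283.6 to 301.8 CPM in Ad-GFP, with most of it from Krt14 and with Krt1 at 0. Their part in the S100a7a difference was not tested.

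Anxa1 had the largest absolute difference in CPM among the 10 genes. It measured 1694, 1679 and 1691 CPM in Ad-Cre-GFP, against 1214, 1244 and 1190 CPM in Ad-GFP. The mean was 1688 ± 7.77 CPM in Ad-Cre-GFP and 1216 ± 26.8 CPM in Ad-GFP, a log2 fold change of 0.47 ± 0.03 and a 1.39-fold higher level. Anxa1 lies at chr19:20373428-20390944, away from the S100 genes.

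Anxa2 and its partner S100a10 went opposite ways. Anxa2 measured 1668, 1628 and 1614 CPM in Ad-Cre-GFP, against 1819, 1848 and 1777 CPM in Ad-GFP, with a log2 fold change of -0.15 ± 0.03. S100a10 measured 527.5, 491.3 and 511.8 CPM in Ad-Cre-GFP, against 463, 466 and 434.6 CPM in Ad-GFP, with a log2 fold change of 0.17 ± 0.03. Per length of merged exons, the ratio of S100a10 to Anxa2 was 0.973, 0.929 and 0.976 in the Ad-Cre-GFP libraries, against 0.784, 0.776 and 0.753 in the Ad-GFP libraries. The ratio averaged 0.959 ± 0.0263 in Ad-Cre-GFP and 0.771 ± 0.0161 in Ad-GFP (SD, n = 3 each). With S100a10 higher and Anxa2 lower in every Ad-Cre-GFP library, the ratios of the groups could not overlap, so nothing further is read from this. The antisense gene Gm16144 overlaps the exons of Anxa2 by 98 bases and held 192 counts over the 6 libraries, and without a stated strand setting reads of the overlap cannot be told apart.

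S100a6, a gene known in growing cells whose protein binds annexin A2 and calcyclin-binding protein, was the S100 gene with the highest CPM. It measured 1255, 1184 and 1273 CPM in Ad-Cre-GFP, against 1113, 1105 and 1078 CPM in Ad-GFP, and its log2 fold change was 0.17 ± 0.03. The lowest Ad-Cre-GFP library was above the highest Ad-GFP library.

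S100a11, the annexin A1 partner, measured 215.6, 206.3 and 211.1 CPM in Ad-Cre-GFP, against 177.7, 171.8 and 160.7 CPM in Ad-GFP. Its log2 fold change was 0.31 ± 0.04. Reads of this gene are uncertain because the processed pseudogenes Gm7665 and Gm12854 match it over 297 bases at 98.7% and 99% identity, so that the counting could split the reads of one source between them. Gm12854 held more counts than S100a11 itself, and S100a11 took 31.8% of the summed counts of the 4 loci in Ad-Cre-GFP and 31.3% in Ad-GFP. Gm7665 averaged 158.4 ± 4.17 CPM in Ad-Cre-GFP and 130.8 ± 7.70 CPM in Ad-GFP, and Gm12854 averaged 293 ± 2.83 CPM in Ad-Cre-GFP and 242.5 ± 10.2 CPM in Ad-GFP. Summed over the copies, the level was 663 ± 10.7 CPM in Ad-Cre-GFP and 543.5 ± 24.5 CPM in Ad-GFP, with a log2 fold change of 0.29 ± 0.03. Gm7665 and Gm12854 had log2 fold changes of 0.27 ± 0.04 and 0.27 ± 0.03, so both loci were higher in Ad-Cre-GFP, as S100a11 was.

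**Figure D2:**
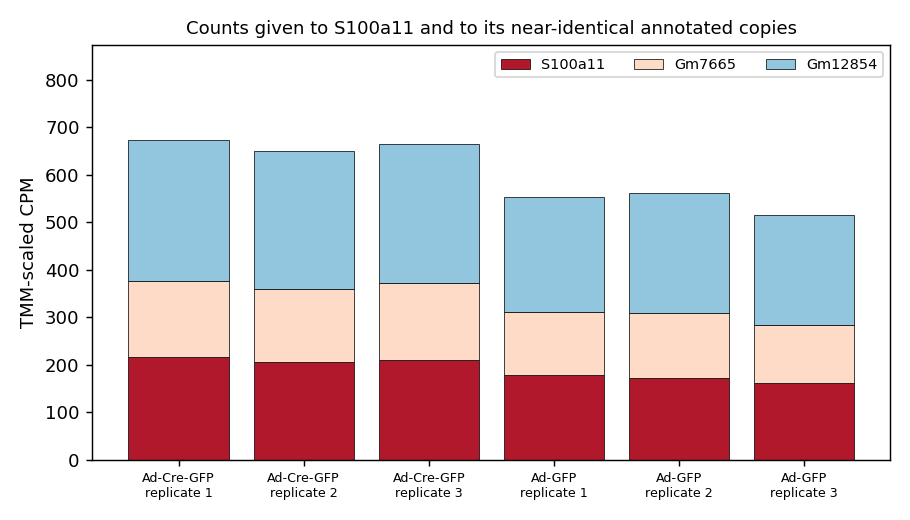
TMM-scaled CPM given to S100a11 (bottom), Gm7665 (middle) and Gm12854 (top), stacked for each of the 3 Ad-Cre-GFP libraries (left) and the 3 Ad-GFP libraries (right). The stacks average 663 CPM in Ad-Cre-GFP and 543.5 CPM in Ad-GFP with the few counts of S100a11-ps included, and the Gm12854 segment is taller than that of S100a11 in every library.

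S100a1 and S100a13 are divergent neighbours whose annotated starts lie 43 bases apart on chromosome 3, and their levels moved oppositely. S100a1, known for its role in calcium handling of heart muscle, measured 27.8, 26.9 and 28.6 CPM in Ad-Cre-GFP, against 32.1, 31.2 and 33.8 CPM in Ad-GFP, a log2 fold change of -0.22 ± 0.05. S100a13, known for the release of FGF1 from cells, measured 23.5, 22.2 and 22.8 CPM in Ad-Cre-GFP, against 18.5, 17.0 and 15.6 CPM in Ad-GFP, a log2 fold change of 0.42 ± 0.06. The ratio of S100a13 to S100a1, per length of merged exons, averaged 0.799 ± 0.0237 in Ad-Cre-GFP and 0.512 ± 0.0574 in Ad-GFP (SD, n = 3 each). Since S100a13 was higher and S100a1 lower in every Ad-Cre-GFP library, these ratios could not overlap between the groups. The RefSeq windows of the pair share 204 bases.

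S100a4 and S100a16 were lower in Ad-Cre-GFP. S100a4, widely used as a marker of fibroblasts and of motile cells, measured 12.52, 12.85 and 11.97 CPM in Ad-Cre-GFP, against 20.2, 20.8 and 21.3 CPM in Ad-GFP, a level 60.0% of that in Ad-GFP and a log2 fold change of -0.74 ± 0.06. The stromal fibroblast markers moved with it, with 4 of 4 tested falling, beside 35.8% lower over all genes tested. Their summed level was 273.9 to 295.3 CPM in Ad-Cre-GFP and 376.3 to 394.9 CPM in Ad-GFP, with Lum and Tcf21 at 0. Most of the level was Col1a1, at a mean of 261.3 CPM in Ad-Cre-GFP and 291.2 CPM in Ad-GFP. The part of these markers in the S100a4 difference was not tested. S100a16 measured 50.9, 51.1 and 51.0 CPM in Ad-Cre-GFP, against 72.1, 73.2 and 82.9 CPM in Ad-GFP, and its log2 fold change was -0.57 ± 0.05. Its Ad-Cre-GFP libraries agreed to within 0.116 CPM (SD), and its Ad-GFP libraries spread by 5.93 CPM (SD), with the third the highest. S100a4 shares exon sequence with the gene model Gm42674, which held 57 counts or 2.32% of the counts of S100a4.

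Levels can be compared between genes only per length. On this scale, as RPKM over merged exons, S100a6 led at 905 ± 34.5 in Ad-Cre-GFP and 803 ± 13.4 in Ad-GFP (SD, n = 3 each). Anxa1 came next in Ad-Cre-GFP, at 580 ± 2.67 in Ad-Cre-GFP and 418 ± 9.21 in Ad-GFP, where Anxa2 was above it. Anxa2 averaged 439 ± 7.55 in Ad-Cre-GFP and 486 ± 9.54 in Ad-GFP. S100a10 followed at 420.9 ± 15.01 in Ad-Cre-GFP and 375 ± 14.3 in Ad-GFP, and S100a11 at 413 ± 9.08 in Ad-Cre-GFP and 333 ± 17.0 in Ad-GFP. In Ad-Cre-GFP the ranges of Anxa2 and S100a10 over the libraries overlapped, as did those of S100a10 and S100a11, though within each library Anxa2 was above S100a10 and S100a10 above S100a11. With the reads of its copies summed, S100a11 reached 1297 ± 20.97 RPKM in Ad-Cre-GFP and 1064 ± 48.0 RPKM in Ad-GFP, above S100a6 on merged exons. With the length of the longest transcript S100a6 averaged 1580 RPKM in Ad-Cre-GFP and 1403 RPKM in Ad-GFP, above that sum, and S100a11 kept its length. On that length S100a10 averaged 745 RPKM in Ad-Cre-GFP, above Anxa2 at 718 RPKM, so the order of that pair there depends on the length used.

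The other 5 genes lay much lower on the per-length scale. S100a1 averaged 40.0 ± 1.24 RPKM in Ad-Cre-GFP and 46.7 ± 1.90 RPKM in Ad-GFP. S100a13 averaged 32.0 ± 0.876 RPKM in Ad-Cre-GFP and 23.9 ± 2.04 RPKM in Ad-GFP, and S100a16 averaged 31.5 ± 0.0718 RPKM in Ad-Cre-GFP and 47.0 ± 3.67 RPKM in Ad-GFP. S100a4 averaged 21.3 ± 0.758 RPKM in Ad-Cre-GFP and 35.6 ± 0.916 RPKM in Ad-GFP. S100a7a was last in both groups, at 19.5 ± 1.32 RPKM in Ad-Cre-GFP and 0.506 ± 0.0292 RPKM in Ad-GFP. The Ad-Cre-GFP libraries of S100a13 and S100a16 overlapped, as did those of S100a4 and S100a7a, and in Ad-GFP those of S100a16 and S100a1 did. With the longest transcript S100a16 averaged 45.2 RPKM in Ad-Cre-GFP, above S100a1 at 41.0 RPKM and S100a13 at 32.0 RPKM.

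**Figure D3:**
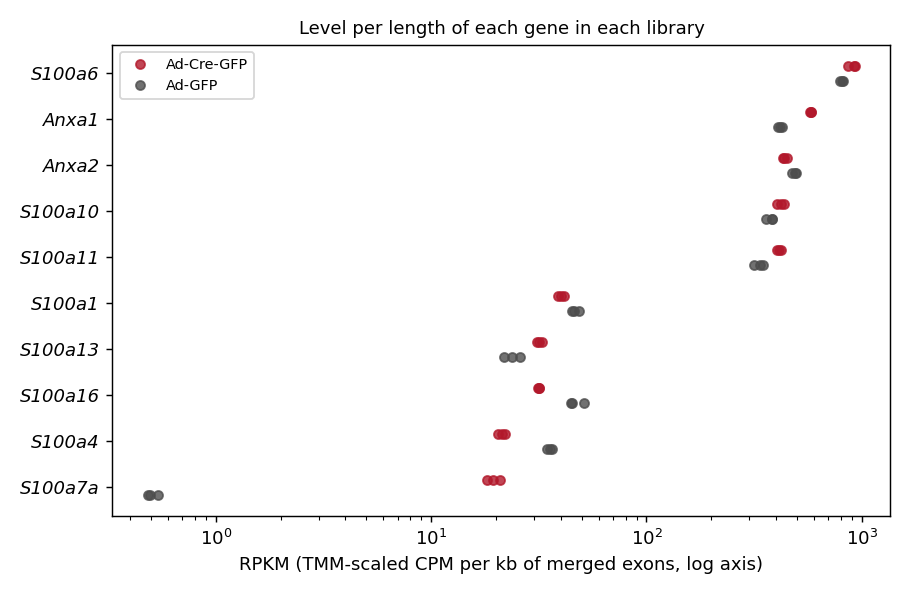
Level per length (RPKM over merged exons, log axis) of the 10 genes in the 3 Ad-Cre-GFP and the 3 Ad-GFP libraries, ordered from the top by the Ad-Cre-GFP level. S100a6 is highest in both groups at 905 RPKM in Ad-Cre-GFP and 803 RPKM in Ad-GFP, and S100a7a is lowest at 19.5 RPKM in Ad-Cre-GFP and 0.506 RPKM in Ad-GFP.

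Genes with the most similar pattern over the 6 libraries were found by the root mean square difference of centred log2 CPM among 2159 genes with a mean of at least 100 CPM. For Anxa2 they were Psmb4 at 0.0142, Rpn2 at 0.0149 and Mapkapk2 at 0.0157, with log2 fold changes of -0.15, -0.16 and -0.14. For S100a10 they were Sart1 at 0.0183, Cenpf at 0.0189 and Ogdh at 0.0194, with log2 fold changes of 0.13, 0.14 and 0.18. The difference between the groups enters this distance, so genes with a like log2 fold change come first. Shared regulation was not tested.

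The 8 S100 genes described lie in 2 blocks on chromosome 3. The block from S100a1 to S100a9 spans 184.7 kb and holds 16 annotated genes, of which 9 were tested, 6 of them among the 10. The 3 other tested genes there gave 2 rises, S100a3 and Gm42674, and 1 gene not called, S100a14. S100a3 and Gm42674 share 144 exon bases, so their rises may not be separate. The block of S100a11 and S100a10 spans 44.2 kb. Between the blocks lie 2825 kb with 102 annotated genes, among them Sprr and Lce genes of the epidermal differentiation complex. Of 16 tested there, 2 rose, 8 fell and 6 were not called, beside 34.0% higher and 35.8% lower over all genes tested. Besides Sprr and Lce genes, the 16 include Gm gene models and the pseudogenes Mif-ps3 and Rplp0-ps1. Near-identical copies were not searched for these genes, so the 16 may not be separate.

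The S100 genes outside the 10 were a list of 9, of which 8 were annotated and 3 were tested. Of these, 2 rose and 1 was not called, a share called of 66.7% beside 69.8% over all genes tested. S100a3, next to S100a4 on the chromosome, averaged 2.47 ± 0.2996 CPM in Ad-Cre-GFP and 0.966 ± 0.0490 CPM in Ad-GFP, a log2 fold change of 1.35 ± 0.20 (edgeR adjusted p = 2.77e-06), and it shares 144 exon bases with Gm42674. S100b, known from glia, averaged 0.851 ± 0.245 CPM in Ad-Cre-GFP and 0.360 ± 0.197 CPM in Ad-GFP, a log2 fold change of 1.16 ± 0.36 (edgeR adjusted p = 0.0068). Without Ad-GFP replicate 1 the S100b log2 fold change was 0.91, with an edgeR adjusted p of 0.05005, and without Ad-GFP replicate 2 it was 1.77. S100a14 had a log2 fold change of 0.28 ± 0.34 (edgeR adjusted p = 0.467). S100a8 and S100a9, the calprotectin pair of neutrophils and monocytes, had at most 4 counts in any library, and the summed immune markers were 6.69 to 7.34 CPM in Ad-Cre-GFP and 10.9 to 13.2 CPM in Ad-GFP, with Adgre1 at 0. The genes S100a5, S100g and S100z were at or near 0. S100a2, outside the list and named here after its counts were seen, had 5, 3 and 7 counts in Ad-Cre-GFP and 1, 2 and 0 counts in Ad-GFP, too few to be tested.

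The annexins outside the 10 were 10 genes, of which 8 were tested, 3 rose, 2 fell and 3 were not called. The share called was 62.5%, beside 69.8% over all genes tested. Their median log2 fold change was -0.02, against -0.01 over all genes. Anxa5, known for binding phosphatidylserine on dying cells, rose to 1735 ± 5.27 CPM in Ad-Cre-GFP, against 854 ± 17.3 CPM in Ad-GFP, a log2 fold change of 1.02 ± 0.03 (edgeR adjusted p = 4.48e-18). Anxa3 rose to 987 ± 4.43 CPM in Ad-Cre-GFP, against 501 ± 25.4 CPM in Ad-GFP, a log2 fold change of 0.98 ± 0.03 (edgeR adjusted p = 1.2e-16). The differences of Anxa5 and Anxa3 were larger on the log2 scale than the 0.47 of Anxa1 and the -0.15 of Anxa2, though the difference between genes was not tested. Anxa6, a large annexin of the plasma membrane and endosomes, averaged 365 ± 8.11 CPM in Ad-Cre-GFP and 343 ± 8.40 CPM in Ad-GFP, a log2 fold change of 0.09 ± 0.03 (edgeR adjusted p = 0.0125, and 0.0829 without Ad-GFP replicate 1).

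Of the annexins that fell, Anxa7 averaged 77.2 ± 0.484 CPM in Ad-Cre-GFP and 118.9 ± 2.71 CPM in Ad-GFP, a log2 fold change of -0.62 ± 0.03 (edgeR adjusted p = 2.15e-13). Anxa9 averaged 4.38 ± 0.346 CPM in Ad-Cre-GFP and 6.86 ± 1.35 CPM in Ad-GFP, a log2 fold change of -0.66 ± 0.13 (edgeR adjusted p = 1.34e-04). It overlaps Mindy1 on the other strand by 71 exon bases and 6330562C20Rik on the same strand by 94. Over the 6 libraries Mindy1 held 14012 counts and 6330562C20Rik 199, while Anxa9 held 379 counts in Ad-Cre-GFP and 462 in Ad-GFP. Reads of these overlaps cannot be told apart here, and their part in the Anxa9 difference was not tested. Anxa4, Anxa8 and Anxa11 had log2 fold changes of -0.06 ± 0.03, 0.0032 and -0.03, with edgeR adjusted p of 0.0804, 0.934 and 0.535. Anxa11 has near-identical copies in Gm2274 and Gm2260.

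**Figure D4:**
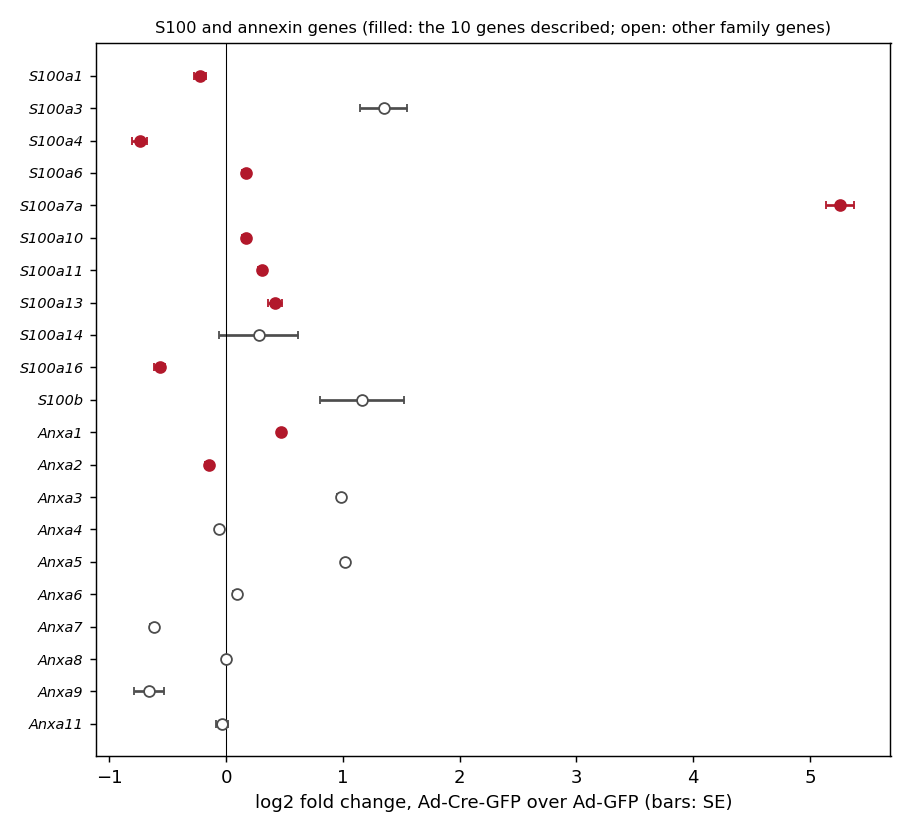
Log2 fold change (Ad-Cre-GFP over Ad-GFP, bars SE) of the 10 genes (filled points), described without a test, and of the other S100 genes and annexins that were tested (open points). S100a7a stands at 5.26, Anxa5 at 1.02 and Anxa3 at 0.98, while Anxa1 is at 0.47 and Anxa2 at -0.15.

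The binding partners and receptors of S100 proteins and annexins were a list of 21 genes, of which 16 were tested, 7 rose, 7 fell and 2, Sugt1 and Tlr4, were not called. The share called was 87.5% and the median log2 fold change -0.00064, beside 69.8% and -0.01 over all genes. Dlc1, a tumour suppressor protein that S100A10 binds, rose to 556.5 ± 7.60 CPM in Ad-Cre-GFP, against 62.4 ± 2.82 CPM in Ad-GFP, a log2 fold change of 3.15 ± 0.04 (edgeR adjusted p = 2.31e-24). Ahnak, a giant scaffold protein that binds the complex of annexin A2 and S100A10, rose to 3948 ± 211 CPM in Ad-Cre-GFP, against 1703 ± 61.7 CPM in Ad-GFP, a log2 fold change of 1.21 ± 0.04 (edgeR adjusted p = 3.5e-16). The plasminogen activators differed in direction. Plau rose to 10.2 ± 0.483 CPM in Ad-Cre-GFP, against 3.69 ± 1.304 CPM in Ad-GFP, a log2 fold change of 1.43 ± 0.17 (edgeR adjusted p = 1.24e-05). Plat fell to 17.2 ± 0.805 CPM in Ad-Cre-GFP, against 47.2 ± 2.87 CPM in Ad-GFP, a log2 fold change of -1.46 ± 0.06 (edgeR adjusted p = 9.59e-16). Bsg, a receptor bound by S100A9, fell to 587 ± 5.65 CPM in Ad-Cre-GFP, against 928 ± 28.0 CPM in Ad-GFP, a log2 fold change of -0.66 ± 0.03 (edgeR adjusted p = 1.69e-14). Hltf, a DNA helicase-like factor, fell with a log2 fold change of -0.49 ± 0.05 (edgeR adjusted p = 3.64e-09). Of further partners, named after their values were seen, Cacybp, which binds S100A6, averaged 176 ± 1.87 CPM in Ad-Cre-GFP and 104.6 ± 0.683 CPM in Ad-GFP (edgeR adjusted p = 2.26e-15). Myh9, the heavy chain of non-muscle myosin that S100A4 binds, averaged 2304 ± 90.7 CPM in Ad-Cre-GFP and 1502 ± 38.3 CPM in Ad-GFP (edgeR adjusted p = 2.46e-13), while S100a4 itself was lower in Ad-Cre-GFP. Plaur, the receptor of the urokinase encoded by Plau, averaged 162 ± 1.35 CPM in Ad-Cre-GFP and 83.7 ± 3.86 CPM in Ad-GFP (edgeR adjusted p = 3.81e-16). Named likewise, Trpv6 and Ager fell, with log2 fold changes of -3.08 ± 0.43 and -0.88 ± 0.17 (edgeR adjusted p = 1.36e-06 and 9.49e-05). Trpv6 was low, at 0.105 CPM in Ad-Cre-GFP and 0.912 CPM in Ad-GFP. S100pbp and Pla2g4a fell by -0.48 ± 0.06 and -0.43 ± 0.03 (edgeR adjusted p = 9.62e-08 and 2.51e-10). Ppp5c rose by 0.16 ± 0.04 (edgeR adjusted p = 0.00293). Fgf1, Fpr1, Fpr2, Kcnk3 and Trpv5 had too few counts to be tested.

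The membrane repair list of 16 genes had 14 tested, of which 5 rose, 8 fell and Tsg101 was not called, with a median log2 fold change of -0.15. Its 92.9% called stands beside 69.8% over all genes. No list described here was matched to all genes by level, so a share called above 69.8% is not read as a trait of its genes. Ehd2, an ATPase of caveolae, rose to 266 ± 7.67 CPM in Ad-Cre-GFP, against 133.0 ± 1.20 CPM in Ad-GFP, a log2 fold change of 1.00 ± 0.03 (edgeR adjusted p = 2.67e-17). Ehd1, a related ATPase of recycling endosomes, rose to 27.3 CPM in Ad-Cre-GFP, against 15.9 CPM in Ad-GFP (edgeR adjusted p = 1.58e-10). The calpains, proteases switched on by calcium, split. Capn2 averaged 464 CPM in Ad-Cre-GFP and 311 CPM in Ad-GFP, a log2 fold change of 0.58 ± 0.03 (edgeR adjusted p = 7.25e-14), and Capn1 averaged 64.0 CPM in Ad-Cre-GFP and 97.7 CPM in Ad-GFP, a log2 fold change of -0.61 ± 0.04 (edgeR adjusted p = 1.02e-12). The ESCRT genes Chmp4b and Vps4b fell, with log2 fold changes of -0.41 ± 0.03 and -0.29 ± 0.03 (edgeR adjusted p = 1.41e-10 and 4.19e-08). Dysf, at a mean under 5 CPM and named after its values were seen, rose with a log2 fold change of 1.99 ± 0.23 (edgeR adjusted p = 1.09e-07). It averaged 2.24 ± 0.273 CPM in Ad-Cre-GFP and 0.566 ± 0.106 CPM in Ad-GFP. Trim72 and Syt7 had too few counts to be tested.

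The other EF-hand calcium sensors were a list of 17 genes, with 13 tested, of which 5 rose, 6 fell and 2, Efhd2 among them, were not called. The share called was 84.6% and the median log2 fold change 0.05, beside 69.8% and -0.01 over all genes. Ncs1, a neuronal calcium sensor, rose to 29.2 CPM in Ad-Cre-GFP, against 15.9 CPM in Ad-GFP, a log2 fold change of 0.87 ± 0.07 (edgeR adjusted p = 3.09e-10). Gca, which encodes grancalcin, and Calm3, a calmodulin gene, rose too, with log2 fold changes of 0.79 ± 0.06 and 0.18 ± 0.03 (edgeR adjusted p = 3.39e-09 and 1.12e-05). Hpcal1, a hippocalcin relative, Cib1, an integrin-binding sensor, and Sri, which encodes sorcin, fell, with log2 fold changes of -0.63 ± 0.04, -0.55 ± 0.05 and -0.50 ± 0.05 (edgeR adjusted p = 4.89e-12, 1.4e-09 and 5.83e-09). Efhd1, at a mean under 5 CPM and named after its values were seen, fell with a log2 fold change of -3.22 ± 0.16 (edgeR adjusted p = 8.22e-14). It averaged 0.802 ± 0.179 CPM in Ad-Cre-GFP and 7.515 ± 0.653 CPM in Ad-GFP. Vsnl1, Calb1, Calb2 and Pvalb had too few counts to be tested.

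**Figure D5:**
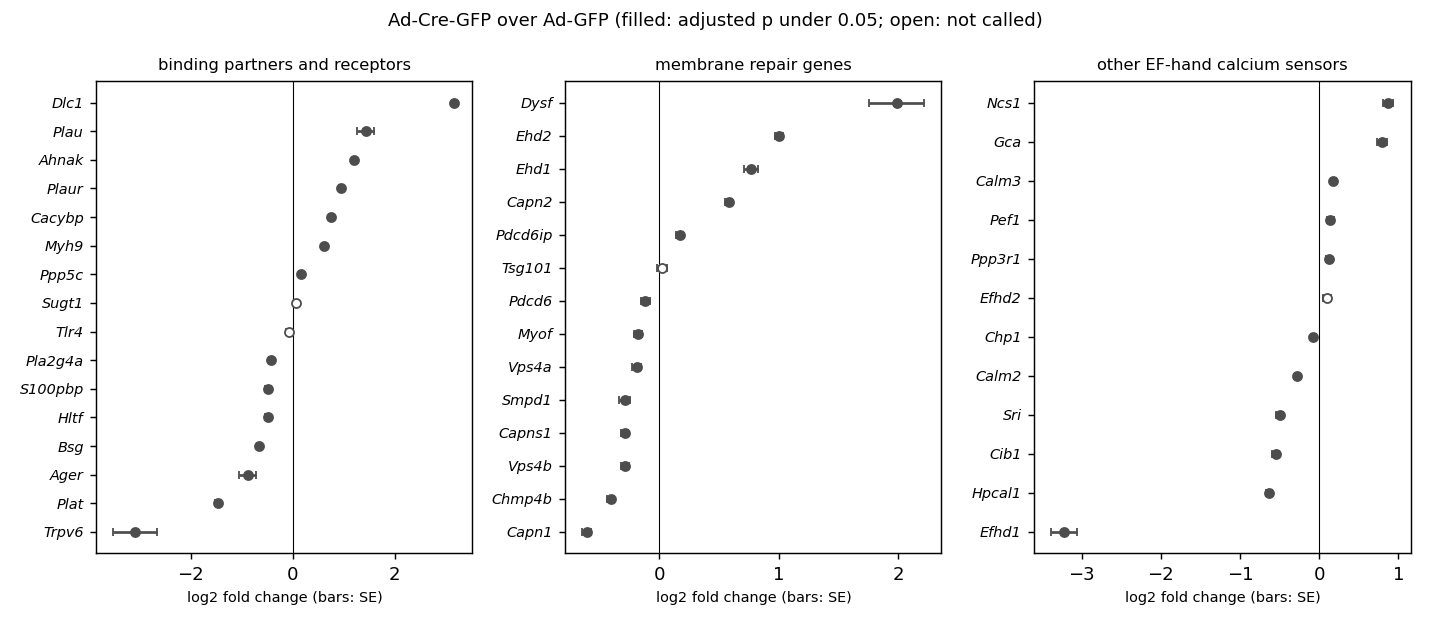
Log2 fold change (Ad-Cre-GFP over Ad-GFP, bars SE) of the tested genes reported here of the binding partners and receptors, the membrane repair genes and the other EF-hand calcium sensors, 1 panel each, with filled points for called genes and open points for genes not called. Points lie on both sides of 0 in each panel, with 7 rises and 7 falls, 5 rises and 8 falls, and 5 rises and 6 falls.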

How the data were processed

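Poly(A)-selected RNA of 6 libraries was sequenced, per the labels' protocols. The deposited table holds whole-number counts of aligned reads per gene, per the file headers. Kallisto 0.46.2, sleuth 0.30.1 and GRCm38 are listed in the submitters' processing notes. Which aligner and counting tool were used, and how strand and reads with several matches were treated, is not given in the sources used here. Of 48440 gene IDs, 48058 matched a mouse gene symbol, and the 382 others held 0.0381% of counts. Gene positions and exon lengths are from GENCODE M21.

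Genes were filtered with filterByExpr, scaled by TMM and tested with the two-sided quasi-likelihood test of edgeR 4.0.16 (robust, R 4.3.3) with Benjamini-Hochberg adjustment over 14811 genes, called under 0.05. Every adjusted p is from this test unless another tool is named. The SE was obtained by dividing the absolute log2 fold change by the root of F. CPM are counts scaled to 1e+06, and RPKM divide them by merged exon length. The common biological coefficient of variation was 3.06%. Limits of 3 counts cover counting error only. No label ties the replicates to separate cultures, so the p-values cover only the spread of these samples, which may be technical. The chi-square per gene of replicate pairs was 2.04 to 4.27, so no pair agreed within sampling noise.

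The 10 genes and all lists were chosen with earlier results of these data known. All 10 are named; lists with at most 10 tested genes are named in full, and of longer lists the 3 called rises and 3 called falls with the largest log2 change and a mean of at least 5 CPM, with further genes said to be named after their values were seen. Near-identical copies were searched with minimap2 2.31 at 90% identity over 200 bases. The fit was repeated with limma-voom (limma 3.58.1), with DESeq2 1.42.0, with RLE or upper-quartile scaling, without the filter or with one at 1 CPM on average, with a replicate block, without each library in turn, and levels with the longest transcript as length. Summing the S100a11 copies was added after seeing the data. The test was checked on simulated data. 1 gene of the EF-hand list is counted but not reported here by name.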

Additional observations from a re-analysis of the deposited data

How the results depend on the processing

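All 10 S100 and annexin genes kept their direction under each of 13 alternatives. Genes called numbered 10344, and 9351 with DESeq2, 10854 with no low-count filter and 9932 to 10124 when 1 library was left out. Correlations of deviations between same-numbered libraries of the groups were 0.0488, 0.0510 and 0.00502. Between libraries of different number they ran from -0.0704 to 0.0227. With 3 libraries per group, these values cannot settle whether the replicate numbers pair the samples. A fit with the replicate number as a block called 10478 genes. The called genes among other S100 genes and annexins were 7, and 5 to 7 when 1 library was left out; S100b and Anxa6 lost their call without Ad-GFP replicate 1, and Anxa4 gained one with upper-quartile scaling (log2 fold change -0.07, edgeR adjusted p = 0.0341). Signs turned for 2 genes that were not called. The log2 fold change of Anxa11 ran from -0.0661 to 0.0130 when 1 library was left out, and that of Anxa8 from -0.0146 to 0.0350, and Anxa8 was at -0.00919 with upper-quartile scaling. With the longest transcript in place of merged exons as length, levels in Ad-Cre-GFP were 1580 RPKM for S100a6, 1008 RPKM for Anxa1, 745 RPKM for S100a10, 718 RPKM for Anxa2, 45.2 RPKM for S100a16, 24.99 RPKM for S100a4 and 20.98 RPKM for S100a7a. Summing S100a11 with its copies was chosen after seeing the data and gave a log2 fold change of 0.29. The causes were not tested.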
